A study of Mus musculus with 2 samples.

Results

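Elements near the genes that write, copy and erase DNA methylation were described in activated mouse T-helper 2 (Th2) cells, with the reporter assay STARR-seq. The set holds the elements whose midpoint lies within 50 kb of an annotated transcript start of Dnmt1, Dnmt3a, Dnmt3b, Tet1, Tet2, Tet3 or Uhrf1. It has 25 of the 18431 elements of the series, and each of the 7 genes has at least 1. In STARR-seq, fragments of genomic DNA are cloned into a transcription unit on a plasmid, so that the RNA made from a fragment reports how active that fragment is. The data came from 1 group of 2 libraries, biological replicates 1 and 2, made in primary Th2 cells of C57BL/6NJ mice that carried the plasmid pool by transient transfection. The cells of both libraries had received anti-CD3e (0.25 ug/mL) and anti-CD28 (1 ug/mL) for 3 days and anti-Interferon-gamma (2 ug/mL) and Interleukin-2 for 4 days, together with Interleukin-4. Both libraries carry the same donor record, age and sex are not known, and the plasmid is an episome, so the fragments were read outside their own chromosome. A table of elements holds no RNA level of a gene, so the Th2 identity of the cells could not be checked here against marker genes.

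DNA methylation in mammals is the addition of a methyl group to cytosine, mostly where it is followed by guanine (CpG). DNMT3A and DNMT3B place new methylation, DNMT1 copies it to the daughter strand after replication, and UHRF1 brings DNMT1 to the hemimethylated sites. TET1, TET2 and TET3 oxidise methylcytosine and so start its removal. In T cells these enzymes are known for keeping cytokine genes silent or open as helper lineages form, and DNMT3A and TET2 are often mutated in blood cancers.

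Each element has 1 value in the authors' deposited table, made from both libraries together: a signed log2 fold, read here as RNA output over input DNA, with a p-value and a q-value. The direction of that ratio is not stated in the sources used here: were it input over output, every sign below would turn, and each share given as negative would be the positive share. Elements are called negative or positive by that sign alone, and all of them have a q-value under 0.01. No value per library is given, so a fold has no error of its own and no spread between the libraries can be shown. The read depth of an element is unknown. The elements were chosen by position alone, but the genes were selected with the signs of the folds known: Dnmt3a had been noted for its many negative elements. For that reason the counts and folds of the set are a description and were not tested.

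The sequences shown come from the narrow elements at the upstream Dnmt3a promoter and the negative elements over the starts of Dnmt3b and upstream of Tet3. Positive elements of Tet2 and Dnmt3b are also shown. The folds of these elements are described below, and some sequences are only part of an element. They are given from the mm10 reference in the direction of the gene, 5′ to 3′, and leave out bases annotated as untranslated. Capitals mark CpG, except in the distal Tet2 element.
Dnmt3a, chr12:3806651-3806700, whole element, log2 -2.80: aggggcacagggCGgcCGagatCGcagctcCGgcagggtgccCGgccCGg
Dnmt3a, chr12:3806951-3807025, whole element, log2 -0.86: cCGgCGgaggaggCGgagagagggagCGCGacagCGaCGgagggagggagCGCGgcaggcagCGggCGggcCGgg
Dnmt3a, chr12:3807255-3807425, part of the element of log2 -3.58: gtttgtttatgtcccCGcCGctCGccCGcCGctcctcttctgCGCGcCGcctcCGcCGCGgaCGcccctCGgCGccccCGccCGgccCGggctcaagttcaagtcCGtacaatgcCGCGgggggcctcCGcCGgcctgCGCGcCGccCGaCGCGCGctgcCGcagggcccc
Dnmt3b, chr2:153649150-153649449, upstream part of the element of log2 -2.22: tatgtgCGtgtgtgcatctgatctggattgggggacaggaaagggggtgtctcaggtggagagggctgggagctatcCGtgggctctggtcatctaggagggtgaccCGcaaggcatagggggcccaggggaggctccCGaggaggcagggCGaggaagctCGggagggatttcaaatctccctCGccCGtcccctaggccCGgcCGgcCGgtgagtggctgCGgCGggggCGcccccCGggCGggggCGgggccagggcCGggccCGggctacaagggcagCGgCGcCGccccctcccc
Tet3, chr6:83456426-83456725, minus strand, part of the element of log2 -2.38: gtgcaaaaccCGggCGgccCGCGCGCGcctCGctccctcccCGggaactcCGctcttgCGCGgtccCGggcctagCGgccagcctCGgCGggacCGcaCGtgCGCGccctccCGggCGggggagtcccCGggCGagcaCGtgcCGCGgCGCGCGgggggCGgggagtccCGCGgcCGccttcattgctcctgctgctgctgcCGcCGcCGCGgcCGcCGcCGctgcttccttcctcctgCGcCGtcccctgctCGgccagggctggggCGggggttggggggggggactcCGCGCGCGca
Tet2, chr3:133544391-133544475, minus strand, upstream part of the promoter element of log2 0.80: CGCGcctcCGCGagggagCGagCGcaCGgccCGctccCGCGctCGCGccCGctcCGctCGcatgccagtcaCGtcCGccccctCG
Tet2, chr3:133436938-133437237, minus strand, middle of the distal element of log2 1.94, where capitals mark a STAT match (TTCNNNGAA) and then an AP-1 match (TGANTCA): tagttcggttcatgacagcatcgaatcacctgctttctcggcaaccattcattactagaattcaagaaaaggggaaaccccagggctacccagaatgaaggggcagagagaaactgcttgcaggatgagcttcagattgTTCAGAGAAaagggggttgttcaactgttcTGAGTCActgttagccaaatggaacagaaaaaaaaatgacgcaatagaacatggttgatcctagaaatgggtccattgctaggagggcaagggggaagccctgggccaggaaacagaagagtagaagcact
Dnmt3b, chr2:153704876-153705000, whole distal element of log2 2.29, with no CpG: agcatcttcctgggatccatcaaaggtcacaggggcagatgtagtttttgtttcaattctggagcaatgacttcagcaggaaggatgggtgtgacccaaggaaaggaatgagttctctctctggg
The 50 bp Dnmt3a element has 6 CpG and a GC content of 80%, and the printed 300 bases of Tet3 hold 48 CpG. The distal Dnmt3b element has a GC content of 48% and 0 CpG. The upstream Tet2 stretch, from an element of positive fold, holds 18 CpG in 85 bases at a GC content of 81.2%, so CpG-dense stretches were printed from elements of both signs.

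Of the 25 elements 11 were negative and 14 positive, which is 44% negative (exact 95% binomial interval 24.4 to 65.1, counting error over elements only). Over all elements 28.5% were negative and 71.5% positive. Dnmt3a carried 7 of the 11. Without Dnmt3a the other 6 genes had 4 negative and 11 positive elements, or 26.7% negative. The log2 folds ran from -3.58 to -0.71 in the negative elements, with a median of -1.06 against -1.23 over all negative elements. The positive ones ran from 0.61 at Dnmt3a to 2.29 at Dnmt3b.

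**Figure D1:**
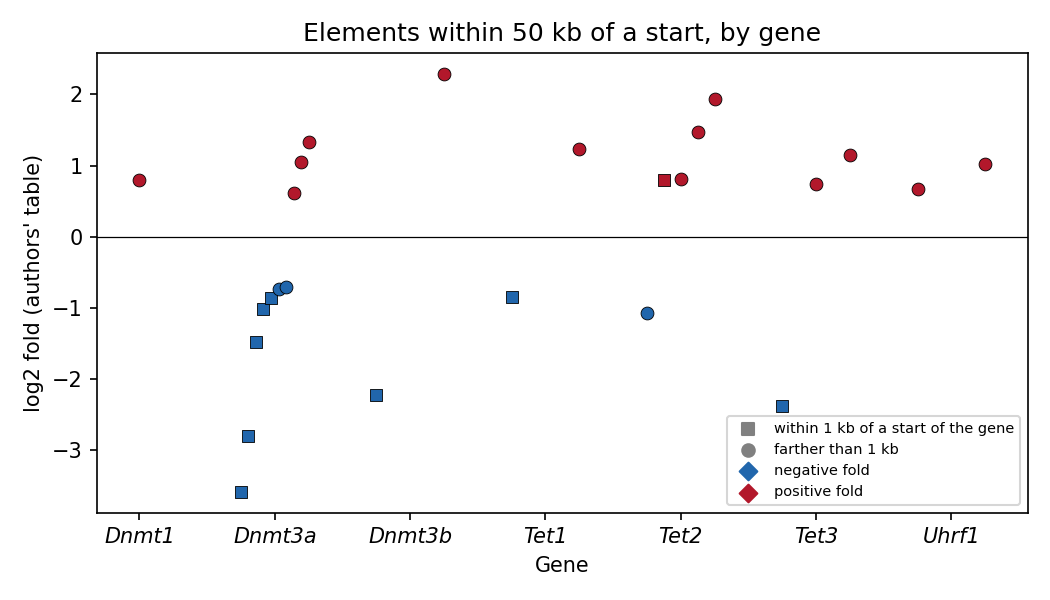
Log2 fold in the authors' table (vertical axis) of the 25 elements, by gene, 1 point per element, with squares within 1 kb of a start of the gene, circles farther away, blue negative and red positive. Dnmt3a holds 7 of the 11 negative elements, and Dnmt1 and Uhrf1 have positive elements alone.

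The signs differed by position. Within 1 kb of a start of their own gene lay 8 negative elements and 1 positive element, the one at Tet2. Of these 8 negative elements, 5 were at Dnmt3a, the gene noted beforehand. Farther away lay 3 negative and 13 positive elements. Over the whole table, 68.4% of promoter elements and 10.8% of the elements outside promoters were negative. There a promoter reaches 1000 bp to each side of a protein-coding start of any gene, a wider measure than own starts. On that measure 8 of the 11 negative elements lay in promoters, as 73.8% of all negative elements did. Of the 14 positive ones 5 did, against 13.6%. The promoter elements of the set were thus 8 negative and 5 positive, and this split, not that at own starts, compares with the 68.4%. For all 11 negative elements the nearest protein-coding start was that of a member gene. That held for 7 of the 14 positive elements, and 4 of the other 7 lay in the promoter of a neighbouring gene. No link between an element and a gene was measured.

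**Figure D2:**
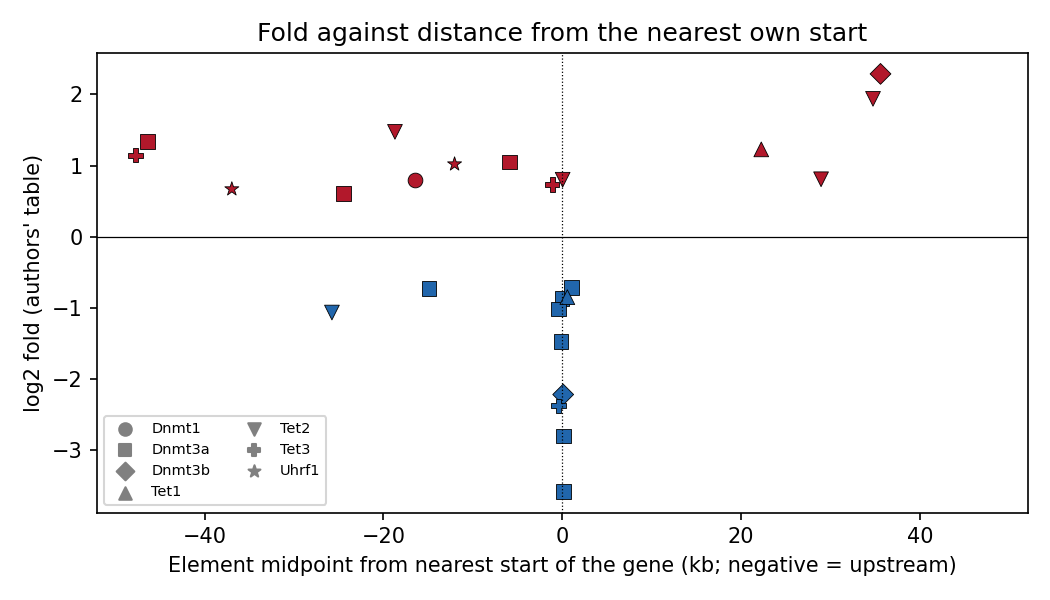
Log2 fold in the authors' table (vertical axis) against the distance in kb of the element midpoint from the nearest annotated start of the gene, with upstream distances negative and a symbol for each gene. The 4 elements of log2 fold under -2 are all within 1 kb of a start, and the 13 positive elements beyond 1 kb lie on both sides.

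Dnmt3a, the gene of a methyltransferase that sets new methylation, had the most elements, 7 negative and 3 positive. Of the 7, 5 lay in a row over 2300 bp at the upstream promoter. The most 5′ of them (chr12:3806126-3806575, 450 bp) had its midpoint 148 bp upstream of the Dnmt3a-202 start and a log2 fold of -1.47 (q = 5.53e-06). The 50 bp element printed above, 148 bp downstream of the Dnmt3a-206 start, followed at -2.80 (q = 3.68e-09). Its q-value was the 7th lowest of the 5248 negative elements. The 75 bp element had -0.86 (q = 0.000179) and ended just before the Dnmt3a-201 start. The next, over the Dnmt3a-218 start (chr12:3807151-3807425, 275 bp), had -3.58 (q = 2.67e-08), and 0.61% of all negative elements had a stronger fold. The last (chr12:3808026-3808425, 400 bp) was in the intron beyond the promoter, 1065 bp from that start, at -0.71 (q = 0.00389). The strongest and the weakest of the 7 folds of this gene thus stood 600 bp apart, with no element listed between them.

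The row covered 1250 bp, with 1050 bp in the 4 gaps of 75, 250, 125 and 600 bp. The GC content was 77.3% to 83.2% in the gaps and 66.9% to 81.3% in the elements. The ratio of observed to expected CpG was 0.76 to 1.12 in the gaps and 0.60 to 1.20 in the elements. Of 4822 runs of negative elements, single elements included, 384 (7.96%) held 2 or more elements at gaps of at most 1 kb. Where such gaps occurred they were often richer in GC than their neighbours, with a median length of 100 bp. Over all 422 gaps of at most 1 kb between negative elements, the median GC content was 78.7%, against 69.7% in the elements beside them, and 60.2% of the gaps were richer than both neighbours. The labels give a fragment size range of 200 to 400, so the 50 and 75 bp elements are narrower than any fragment in that range if it is in bp. Of all negative elements 9.26% were 100 bp wide or less, and of all positive ones 5.01%.

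**Figure D3:**
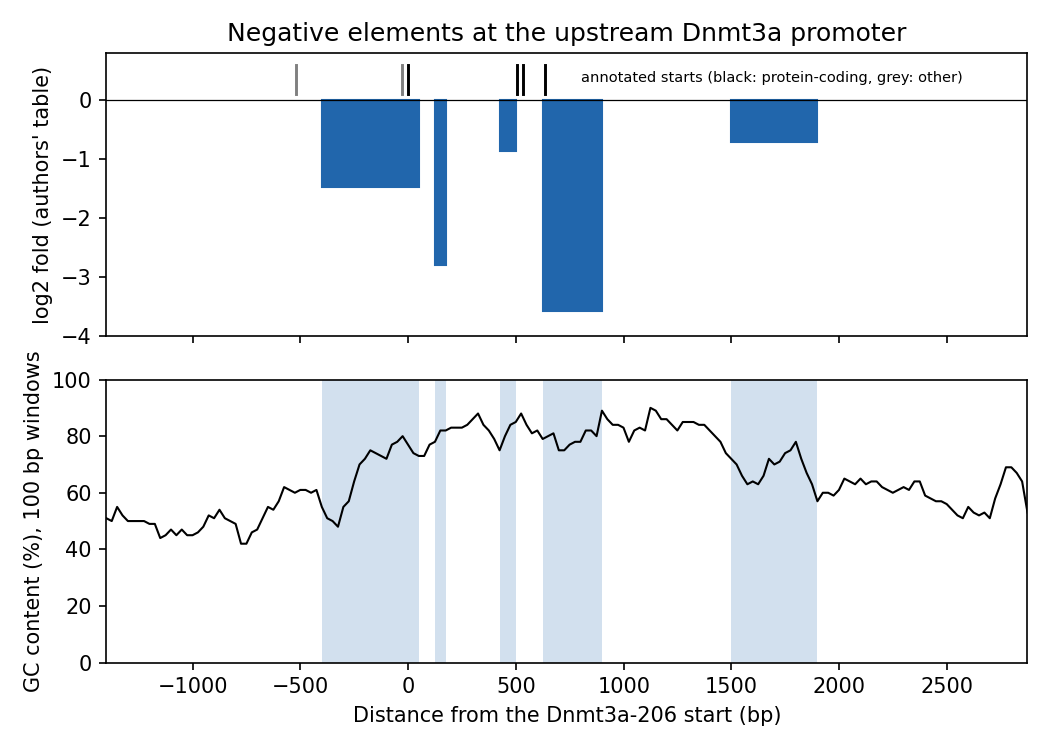
The upstream Dnmt3a promoter by distance in bp from the Dnmt3a-206 start, with the log2 fold of the 5 negative elements as blocks of their true width (top) and GC content in 100 bp windows (bottom, elements shaded). Ticks mark annotated starts, and the 600 bp gap on the right has a GC content of 83.2%.

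The number of negative elements at Dnmt3a depends on how this row is counted. With 7 within 50 kb of its starts and 5 within 1 kb, Dnmt3a was in both counts the only 1 of 21938 protein-coding genes to reach its number. No other gene therefore shares the pattern as counted this way. The row of 5 was also the longest of the 4822 runs of negative elements with gaps of at most 1 kb, 92% of which held a single element. Dnmt3a had been noted beforehand for its many negative elements, so these ranks restate that choice and were not tested. With each run counted once, Dnmt3a had 3 negative places, and 618 genes (2.82%) had as many. It also has 18 annotated starts spread over 101 kb, so its 50 kb margins take in 201 kb, against 115 to 194 kb for the other 6 genes.

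The other negative places of Dnmt3a were inside the gene. One element (chr12:3890976-3891550, 575 bp) ended before the internal starts of Dnmt3a-205 and Dnmt3a-203, with its midpoint 465 bp upstream and a log2 fold of -1.02 (q = 0.00693). An internal promoter of this gene is known to give the shorter isoform DNMT3A2. The element held matches to the STAT, ISRE and SP/KLF letters, and its GC content of 56.7% was the lowest of the 8 negative elements at own starts. The other (chr12:3834251-3835200, 950 bp) lay in an intron 14910 bp from a start, at -0.73, and its q-value of 0.00986 was the highest of the 25.

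The 3 positive elements of Dnmt3a lay upstream, and the farther 2 fall within Dtnb, the gene of beta-dystrobrevin. They had log2 folds of 1.34 (chr12:3759501-3759775, 46369 bp from a start, in an intron of Dtnb), 0.61 (chr12:3781251-3781825, 24469 bp away, in an exon of Dtnb) and 1.05 (chr12:3799851-3800400, 5882 bp away, between the genes). The nearest of them held an AP-1 and a STAT match. The element at 0.61 had one of the weaker positive folds in the table, since 97.4% of positive elements were stronger, and it held a CTCF match.

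Dnmt3b encodes the other enzyme of new methylation. Its promoter carried a wide negative element (chr2:153649076-153650350, 1275 bp) over its starts, at -2.22 (q = 7.29e-05), and 9.01% of negative elements had a stronger fold. The element held 116 CpG, 4 SP/KLF matches and an NFY match. The positive element of Dnmt3b (log2 2.29, q = 9.87e-05) had the highest fold of the set. It lies in an intron of Dnmt3c, a rodent gene for a methyltransferase of the male germ line, 8286 bp from the start of that gene. It was within 50 kb of Dnmt3b only through the start of a transcript of Dnmt3b that is not protein-coding.

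Dnmt1 and Uhrf1, the pair that copies methylation at replication, had no element within 1 kb of a start, as 73.6% of protein-coding genes had none. The single element of Dnmt1 (chr9:20975726-20977025, 1300 bp) was at 0.80 (q = 0.00204) and lay 334 bp from the start of S1pr2, a receptor for sphingosine-1-phosphate. It held matches to AP-1, CRE, NF-kB and the STAT6 spacing. Uhrf1 had an element at 1.02 (chr17:56290901-56291650, q = 0.000418) in the promoter of Plin3, a lipid droplet protein, and one at 0.67 (chr17:56266051-56266700, q = 0.0017) nearest to Fem1a. Both Uhrf1 elements held AP-1 matches. The latter had 3 of them, 1 of which was also a match to the longer MAF letters.

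Tet1, Tet2 and Tet3 differed at their own starts. Tet3 had a strong negative element (chr6:83456426-83457275, 850 bp) 458 bp upstream of the Tet3-203 start, at -2.38 (q = 1.3e-07), with a GC content of 74.7%, 4 SP/KLF and 2 E-box matches. Tet1 had a weak, wide one (chr10:62886076-62887450, 1375 bp) 561 bp downstream of the Tet1-207 start, at -0.85 (q = 0.00471), which was weaker than 85.3% of negative elements. Tet2 had a weak positive one (chr3:133544026-133544475, 450 bp) over its main group of starts, at 0.80 (q = 0.000735), which was weaker than 82.2% of positive elements. All 3 had an observed to expected CpG ratio over 0.6. The values are single, and the differences between these genes have no error.

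Tet2 also had the most positive elements, 4, and 5.95% of protein-coding genes had as many. The strongest (chr3:133436801-133437375, log2 1.94) had the lowest q-value of the positive elements in the set, 2.43e-09, and lies beyond the 3′ end of the gene. The others outside the promoter were at 1.47 (chr3:133563601-133564100, 18711 bp upstream) and 0.81 (chr3:133515151-133515575, in an intron). Each of these 3 held an AP-1 match, as did the negative intronic element of Tet2 (chr3:133506176-133506700, log2 -1.06), which lies between the promoter and the gene's end. That negative element had a GC content of 46.3%, the lowest of the 11, and was the only negative one under 55%.

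The positive elements of the remaining TET genes were at other genes or weak. Tet1 had one in the promoter of Ccar1, a cell cycle and apoptosis regulator (chr10:62791826-62792775, log2 1.23, 14 bp from the start), with 2 NRF1 matches and an E2F match. Tet3 had one in the promoter of Dguok, the mitochondrial deoxyguanosine kinase (chr6:83506451-83507150, log2 1.15), with a CRE match. The other Tet3 element (chr6:83442626-83443025, log2 0.74) lay 1147 bp upstream of an internal start, with AP-1 and GATA matches.

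The edge of the window fell between an element of Tet3 at 47.7 kb (log2 1.15) and 1 of Dnmt3a at 46.4 kb (1.34) on the inside, and elements at 63.9 kb from Tet2 (1.18) and 65.8 kb from Dnmt3a (1.36) on the outside.

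Base composition differed between the signs as it does in the table as a whole. The median GC content was 68.2% in the 11 negative and 53.1% in the 14 positive elements, against 66.3% and 47.5% over all elements of each sign. The CpG ratio was over 0.6 in 9 of the 11 and in 4 of the 14. Its medians were 0.75 and 0.24, against 0.79 and 0.23 over all elements of each sign. At promoters, 98.3% of all elements with a GC content of 75% or more were negative, and the 3 of the set in that range, all of Dnmt3a, were negative as well. From 60% to under 65%, 62.2% of promoter elements were negative, and 1 of 4 in the set, the one at Tet1, was. The 3 positive ones there were at S1pr2, Dguok and Tet2. Outside promoters and from 45% to under 50%, 7.27% of all elements were negative, and the intronic Tet2 element was 1 of 5 in the set. The only positive element of the set above 65%, at Ccar1, had a GC content of 65.2%. From 65% to under 70%, a range whose lower edge it was at, 90% of promoter elements were negative.

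**Figure D4:**
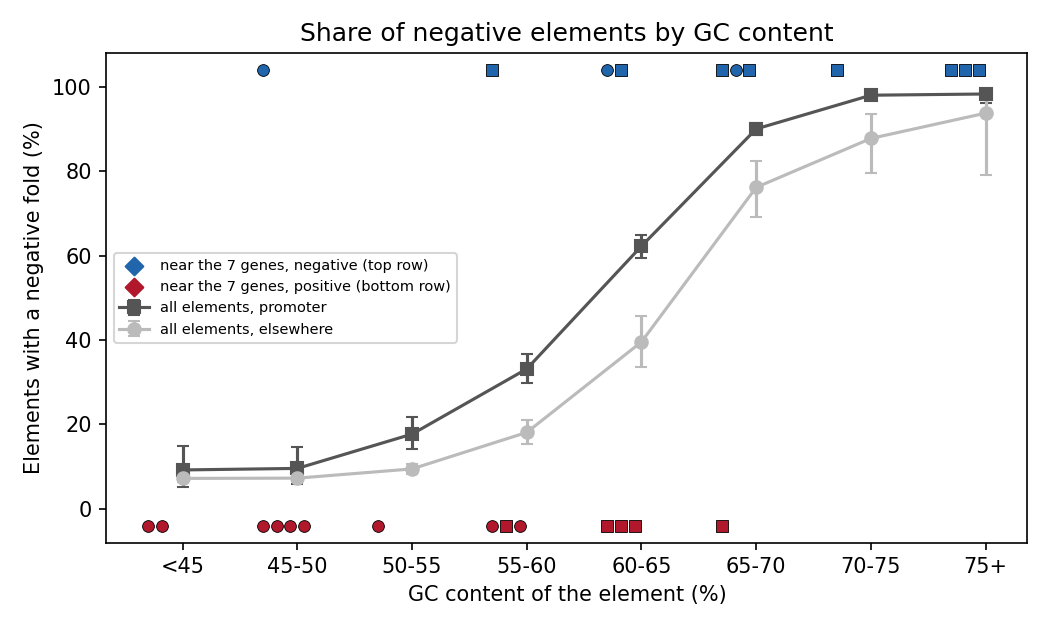
Share of elements with a negative fold (vertical axis, %, with exact 95% binomial bars) by GC content of the element, for promoters (dark squares) and elsewhere (light circles) over the whole table. The top and bottom rows of points are the negative and positive elements of the set, and the 3 richest are negative promoter elements of Dnmt3a.

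The starts of the 7 genes were also set beside other starts of like composition, as windows of 500 bp to each side with a GC content within 2 points. Starts of 1 gene lie close together, so these shares are over overlapping windows. At the Dnmt3a-206 start (72.7% GC) 65.1% of 1647 such windows met a negative element. At the upstream starts Dnmt3a-201, Dnmt3a-204 and Dnmt3a-218 the shares were higher, 80.8% of 78, 76.8% of 56 and 78.9% of 19. At Dnmt3b-202 (70.4%) 57% of 2513 met one, and at Tet3-203 (78.9%) 71.6% of 232 did. For Tet1-207 (57.7%) the share was 9.99%, and for the internal Dnmt3a-205 (62.9%) it was 26.6%. The Tet2-204 window (67.3%) had a positive element, as 6.52% of 3957 like windows did, while 46.9% met a negative one. The Dnmt1-207 window (64.8%) had none, as 57.9% of 5673 had none, and the 5 Uhrf1 windows (57.7% to 61.5%) had none, as 69.5% to 80.2% of like windows. The table lists only regions that passed the q-value limit. Whether the Dnmt1 and Uhrf1 promoters were among the regions tested is not known here.

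A list of 17 consensus sites was searched on both strands. The AP-1 letters (TGANTCA), those of the FOS and JUN dimer that T-cell receptor signals induce, were in 8 of the 14 positive elements and 1 of the 11 negative ones. Over all elements of each sign the shares were 43.1% and 12.5%. Among elements of about the width of the distal Tet2 element printed above (within 20%), 45.5% of 4873 held them. The SP/KLF letters (GGGGCGG) were in 5 negative elements (58.2% of all negative ones hold them) and 3 positive ones (10.2%). None of the 4 Dnmt3a elements within 1 kb of its upstream starts had a match to any of the 17. Narrow elements often had none: of all negative elements within 20% of their widths, 91.2% had no match at 50 bp, 80% at 75 bp, 32.6% at 275 bp and 17.4% at 450 bp. The STAT letters (TTCNNNGAA) were in 3 of the 11 negative and 3 of the 14 positive elements, against 10.6% and 23.5% of all elements of each sign. The NFY letters (CCAAT) were likewise in 3 and 3, against 43.2% and 41.3%. CRE (TGACGTCA) was in 2 positive elements and 0 negative ones, against 3.01% and 2.15%. The MAF site contains the letters of AP-1. Of the 25 elements 0 had another match in the genome of at least 90% identity over at least 80% of their length.

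A list of 45 other genes of DNA methylation and its removal gave a frame for the 7. All 45 matched the annotation, and 27 (60%) had a negative and 35 (77.8%) a positive element within 50 kb, against 39.9% and 55.1% of all protein-coding genes. The windows were not matched for size or gene density. Many elements were nearest to another gene, as the leading negative ones of Dnmt3l (Pfkl), Trim28 (Ube2m), Zfp57 (Gabbr1), Mbd3 (Mex3d), Zbtb4 (Tmem102) and Kmt2b (Arhgap33) were. Others, as at Uhrf2 and Usp7, were nearest to the listed gene. Within 1 kb of a start, 12 (26.7%) had a negative and 6 (13.3%) a positive element, against 17.5% and 9.85%. Of the 7 members, 5 had a negative and 7 a positive element within 50 kb. By role, a negative element was near 8 of 13 genes of maintenance and cofactors, 5 of 10 readers, 6 of 7 CXXC proteins, which bind unmethylated CpG, and 8 of 15 genes of removal and repair. A positive element was near 10, 8, 6 and 11 genes of these groups in the same order, so the CXXC proteins had the same count for both signs.

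By q-value, the leading negative elements of the list were near Idh2, an isocitrate dehydrogenase of the mitochondria (log2 -1.99, at its start), Kdm2b (-1.75) and Kmt2a (-1.85), both CXXC proteins, at their starts, and Usp7, a deubiquitinase that acts on UHRF1 and DNMT1 (-1.67). Those of Parp1 (-2.84) and Neil2 (-2.40) were nearest to the starts of Lin9 and Gata4. The leading positive ones were near Uhrf2, the relative of Uhrf1 (2.52, nearest to Gldc), Trdmt1 (2.11, nearest to Vim), a DNMT relative that methylates tRNA, the reader Mbd1 (3.73, nearest to Cfap53), Kdm2b (1.70), and the methyl-CpG binding zinc finger proteins Zbtb38 (2.80) and Zbtb33 (3.98). Uhrf2 also had a negative element at its own start (-1.07), as Uhrf1 did not. Tdg, the glycosylase that removes oxidised methylcytosine, had 1 element of each sign within 1 kb of its starts, at -0.81 and 2.09. Dnmt3c shares both of its elements with Dnmt3b.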

How the data were processed

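The authors deposited 1 table of elements on mm10, derived from the alignments of both output libraries together, per the text lists of files deposited with the libraries. The authors made 1 log2 value per element from both libraries, a signed fold as deposited. That it is log2, and of output over input, is an assumption, since no source used here states the base or the reference. A change of base would rescale folds and leave signs and order as they are, while the opposite reference would turn every sign. The p-value and q-value of an element are the authors', as deposited, on a linear scale. The names of the test, the caller and the aligner are not stated in the labels or files used here. The table holds no counts, so depth and precision per element are unknown, and no test was run on single elements or between groups.

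The 18414 elements on chromosomes 1 to 19, X and Y were read from the GRCm38.p6 genome (the build of mm10) and placed with GENCODE M21, by midpoint and every transcript start of a gene. The 17 on other scaffolds entered totals alone. Sequence was read with pysam 0.24.0, and matches elsewhere were sought with blastn 2.17.0. Site searches and placement were tested on simulated data. The 7 genes, the 45 genes of the list, the 17 sites and the alternatives were chosen with earlier results of these data known. All 25 elements are described. Of the list, up to 6 genes per sign were named by the lowest q-value. Tdg, Dnmt3c and the negative Uhrf2 element were named after their values were seen. As nothing in the labels says that the libraries came from separate animals, the authors' p-values may measure technical spread alone.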

Additional observations from a re-analysis of the deposited data

How the results depend on the processing

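Counts were judged by a change beyond 1.5 times and the share by its binomial interval, so their stability cannot be compared. The share of negative elements, 44% in the full set, ran from 26.7% without Dnmt3a to 62.5% within 20 kb. All alternatives stayed within its interval of 24.4 to 65.1, which is wide and also holds the 28.5% of all elements. The interval takes elements as independent, although 5 of the negative ones lie in a single row at Dnmt3a. It served as a yardstick for the alternatives and is no test of the share. At a q-value under 0.001, 6 negative and 7 positive elements were left, and all of the 6 (100%, against 72.7% in the full set) were promoter elements. Of these 6, 4 were neighbours in the row at the upstream Dnmt3a promoter. The promoter share of all negative elements at that limit was not computed. At a log2 fold of at least 1 in size there were 7 negative and 8 positive elements. Within 20 kb 6 positive elements were left, and 7 had a member gene as the nearest. Without Dnmt3a there were 4 negative elements. With runs of negative elements counted once, an alternative chosen after the data were seen, there were 7, of which 3 at Dnmt3a. In the list of 45 genes, 17 had a negative element at a q-value under 0.001, and 22 had a positive one at a log2 fold of at least 1 in size. The shares of all protein-coding genes at these limits were not computed, so these 2 counts have nothing to be set beside. Of 85 recounts of single genes, 58 stayed within 1.5 times and 27 did not, most of them counts of 1 or 2. Dnmt3a had 4 negative elements at either stricter limit.

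No paired analysis was possible because the table holds no value per library, and for the same reason no library was left out in turn. What depth limits is not visible in the table.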
